A study of Homo sapiens with 12 samples.

Results

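The genes of MHC class I antigen presentation were followed through 12 polyA RNA-seq libraries of C4.2B, a human castration-resistant prostate cancer cell line. They were taken by name: the class I heavy chains HLA-B, HLA-C, HLA-E and HLA-F, the light chain B2M, the proteasome subunit PSMB9, the peptide transporter subunits TAP1 and TAP2, and the loading chaperone TAPBP. All 9 were found among the 23228 genes counted, and all 9 passed the filter on low counts that 14189 genes passed. PSMB9 could do so only through the arms where it was high, as given below. The study asked how cells respond when EZH2, the enzyme that trimethylates lysine 27 of histone H3, is inhibited together with PI3K signaling. Replicates A, B and C were made in each of 4 arms: DMSO (vehicle), GDC (0.5 µM of GDC-0941, a pan-PI3K inhibitor), GSK (GSK126, an inhibitor of EZH2, at 5 µM) and COMBO (both, at the same doses). In every arm the last 24 h were spent in medium with 10% charcoal-stripped serum. The GSK and COMBO cells had received GSK126 for 6 days beforehand, while the DMSO and GDC cells had received DMSO, so a difference that involves GSK126 joins a long exposure to the drug with the final day. All libraries came from a single cell line, and the replicates were plates of that line, so that p-values measure the spread between such plates only.

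Class I molecules carry short peptides from proteins made inside the cell to its surface, where CD8 T cells inspect them. Proteins are cut by the proteasome, of which PSMB8, PSMB9 and PSMB10 are the interferon-inducible catalytic subunits. The TAP1-TAP2 heterodimer pumps the peptides into the endoplasmic reticulum, TAPBP (tapasin) bridges the transporter to the waiting heavy chain, and the heavy chain leaves for the surface only when paired with B2M and filled with peptide. HLA-B and HLA-C are classical heavy chains, HLA-E mainly shows leader peptides of other class I chains to NK cell receptors, and HLA-F is a nonclassical chain. In many tumors this pathway is kept low, and EZH2 with its histone mark is a known repressor of it.

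Depth in genes ran from 8785218 counts (GSK replicate A) to 44437751 counts (DMSO replicate C). At the shallowest library 3 counts, the upper limit that a count of 0 allows, correspond to 0.330 CPM (counts scaled to the TMM-adjusted library size). All 10 luminal epithelial markers of the prostate were expressed in every arm, with a summed level of 3445 to 3664 CPM in DMSO and 5668 to 6113 CPM in COMBO. Of these 10, 7 rose in COMBO and 2 fell, HOXB13 by 0.68 (adjusted p = 5.82e-11) and EPCAM by 0.51 (adjusted p = 4.96e-08) on the log2 scale. Of 11 immune cell markers, 5 were at 0 in DMSO, 6 with GDC, 4 with GSK and 3 with COMBO. The T cell genes CD3D and CD3E were at 0 in every library. PTPRC, which encodes CD45, was at 0 in DMSO and GDC with 5 counts in GSK and 7 in COMBO, and LYZ, the lysozyme of myeloid cells, had 6 counts in DMSO, 1 with GDC, 16 with GSK and 37 with COMBO. The immune list summed to 2.74 to 3.48 CPM in DMSO and 6.26 to 7.95 CPM in COMBO, mostly CD8A, whose mean was 2.11 ± 0.38 CPM with DMSO against 4.91 ± 0.83 with COMBO (SD, n = 3). The 7 stromal and endothelial markers summed to 17.3 to 19.3 CPM in DMSO and 37.7 to 56.9 CPM in COMBO, mostly COL1A1. The part of these shifts in the results below was not tested, and in bulk RNA a change in the number of expressing cells cannot be told apart from a change in RNA per cell. Transcripts of EZH2 itself, whose enzymatic activity GSK126 blocks, were at 105 ± 2.75 CPM in DMSO, 81.8 ± 6.93 with GDC, 56.3 ± 0.76 with GSK and 34.9 ± 0.81 with COMBO. Because the drug acts on the protein, this level does not test the labels.

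Of the members, 8 lie on chromosome 6 in the MHC and 1, B2M, on chromosome 15 (hg38, GENCODE 44). PSMB9 (chr6:32844136-32859851, plus strand) and TAP1 (chr6:32845209-32853816, minus strand) lie on opposite strands, and TAP2 (chr6:32821833-32838739, minus strand) lies close by. The annotated span of TAP1 falls within that of PSMB9. By the main start sites in the RefSeq promoter table (GRCh38.p14), which are 488 bases apart, PSMB9 and TAP1 are transcribed away from each other. Promoter windows of 300 bases, 250 before and 50 after each start, were found for 8 of the 9 members, all but HLA-E. The windows below belong to the genes on which the results turn: TAP1 and PSMB9, which share a stretch of DNA and both rose, TAP2, which fell, TAPBP, and B2M, which moved least. Each is written 5′ to 3′ on the strand of its gene, and capitals mark the core of an interferon-stimulated response element (GAAA, any 2 bases, GAAA, on either strand).
TAP1, chr6:32853655-32853954 (minus strand): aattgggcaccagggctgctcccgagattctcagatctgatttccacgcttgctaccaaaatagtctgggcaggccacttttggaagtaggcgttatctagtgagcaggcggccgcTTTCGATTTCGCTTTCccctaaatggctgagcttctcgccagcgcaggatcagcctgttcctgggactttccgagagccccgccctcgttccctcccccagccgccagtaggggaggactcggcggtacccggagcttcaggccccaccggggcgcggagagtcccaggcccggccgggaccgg
PSMB9, chr6:32853942-32854241 (plus strand): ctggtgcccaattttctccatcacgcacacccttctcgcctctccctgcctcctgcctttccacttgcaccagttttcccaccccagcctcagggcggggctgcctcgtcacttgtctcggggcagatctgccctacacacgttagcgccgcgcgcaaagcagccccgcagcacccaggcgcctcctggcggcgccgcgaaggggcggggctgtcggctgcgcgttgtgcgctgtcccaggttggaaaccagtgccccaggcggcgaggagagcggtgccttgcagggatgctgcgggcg
TAP2, chr6:32838690-32838989 (minus strand): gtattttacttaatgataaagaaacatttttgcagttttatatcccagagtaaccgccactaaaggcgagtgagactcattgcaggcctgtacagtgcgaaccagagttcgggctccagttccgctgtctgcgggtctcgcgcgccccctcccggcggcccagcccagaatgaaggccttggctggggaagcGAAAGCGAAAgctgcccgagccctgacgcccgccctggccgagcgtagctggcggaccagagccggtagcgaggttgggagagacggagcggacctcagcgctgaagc
TAPBP, chr6:33314029-33314328 (minus strand): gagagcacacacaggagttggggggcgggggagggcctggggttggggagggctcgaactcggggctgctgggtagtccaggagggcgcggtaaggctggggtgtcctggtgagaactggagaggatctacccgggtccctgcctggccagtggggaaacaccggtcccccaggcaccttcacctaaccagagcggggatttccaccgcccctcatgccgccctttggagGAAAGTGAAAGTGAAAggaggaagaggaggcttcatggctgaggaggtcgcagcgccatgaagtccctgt
B2M, chr15:44711267-44711566 (plus strand): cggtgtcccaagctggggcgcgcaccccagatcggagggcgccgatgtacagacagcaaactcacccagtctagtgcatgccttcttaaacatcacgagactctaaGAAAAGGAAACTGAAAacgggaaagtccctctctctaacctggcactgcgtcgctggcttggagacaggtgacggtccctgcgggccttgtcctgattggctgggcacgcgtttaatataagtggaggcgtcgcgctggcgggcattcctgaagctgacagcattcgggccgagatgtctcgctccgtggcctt

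The response element core was present in the windows of TAP1, TAP2, TAPBP, B2M and HLA-F, against 3.57% of 35114 promoter windows of the same length. TAP1, TAPBP and B2M each held 2 overlapping cores. TAP2 held 1, from position -58 to -49 relative to its start, so the core was shared by members that rose and by the member that fell. The core of an NF-kB site (GGGA, any 2 bases, TTCC) was in the TAP1 and B2M windows and in 1.61% of all windows. CCAAT boxes, the site of NF-Y, were found in the windows of HLA-B (3 matches), HLA-C (4), HLA-F (2), B2M, PSMB9 and TAP1, against 34.6% of all windows. The PSMB9 and TAP1 matches are the same bases, read on opposite strands where the windows share 13 bases. The GC box GGGCGG was in the windows of HLA-C, PSMB9, TAP1, TAP2 and TAPBP, against 45.0% of all windows. The GAS element (TTC, any 3 bases, GAA) was found only in the second, downstream window of TAP1, against 7.66% of all windows. A match describes these letters and says nothing of binding.

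The members moved most in the arms that received GSK126. In GSK against DMSO, 8 of the 9 members were higher and 1, TAP2, was lower (edgeR quasi-likelihood test, adjusted p under 0.05), where 40.0% of all genes tested were higher and 35.7% lower. The median change of the members was 1.06 on the log2 scale, against 0.06 over all genes. In COMBO the split was again 8 higher and 1 lower, against 43.3% and 39.2% of all genes, with a median of 1.05 against 0.05. In GDC, 6 were higher and 1 lower, against 20.0% and 20.0% of all genes, but the median was only 0.27 against 0.02. B2M and PSMB9 did not pass the test in GDC. All 3 comparisons share the DMSO libraries. PSMB9 is among the higher members in GSK and COMBO, and only those arms carried it past the filter on low counts.

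**Figure D1:**
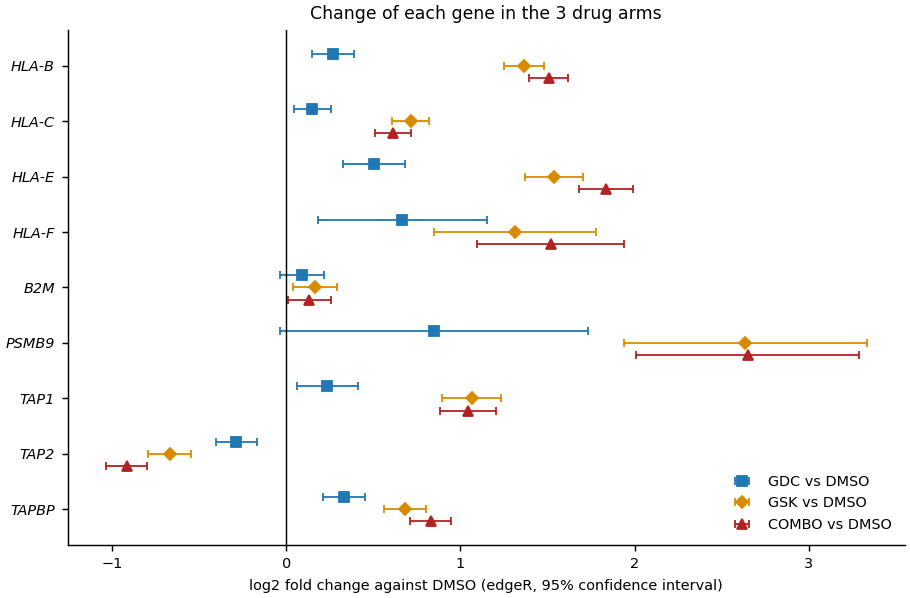
Log2 fold change against DMSO (x axis, edgeR estimate with its 95% confidence interval) of each of the 9 genes in GDC (blue squares), GSK (orange diamonds) and COMBO (red triangles). TAP2 lies left of 0 in every arm, PSMB9 lies farthest right at 2.64 in GSK and 2.65 in COMBO with the widest intervals, and the GSK and COMBO estimates lie close together for each gene.

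HLA-B, a classical heavy chain, rose in every drug arm. The DMSO libraries A, B and C held 30.8, 33.4 and 33.5 CPM, the GDC libraries 39.6, 38.5 and 40.6, the GSK libraries 85.9, 83.8 and 84.1, and the COMBO libraries 88.8, 94.6 and 96.6. The 4 arms did not overlap. HLA-B was 2.57-fold higher in GSK (95% confidence interval 2.38 to 2.78, adjusted p = 2.01e-14) and in COMBO 2.84-fold higher (2.63 to 3.06, adjusted p = 6.70e-16). GDC alone gave a 1.20-fold rise (adjusted p = 0.000909), and COMBO exceeded GSK by 0.14 ± 0.05 (SE) on the log2 scale (adjusted p = 0.0262). That last difference was 0.14 both without GSK replicate B and without GSK replicate C, and did not pass the test in either case.

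HLA-C, the most abundant of the 4 member heavy chains, rose less. Its level was 108, 119.7 and 124 CPM in DMSO, 134, 133 and 126 with GDC, 197, 197 and 186 with GSK, and 181, 178 and 182 with COMBO. All COMBO libraries were below all GSK libraries, though the difference of -0.10 ± 0.05 on the log2 scale did not pass the test (adjusted p = 0.109). The rise was 1.64-fold in GSK (1.52 to 1.77, adjusted p = 1.19e-10) and 1.53-fold in COMBO (1.42 to 1.65, adjusted p = 6.03e-10). HLA-C was the member for which COMBO fell short of the sum of the single-drug changes by the test of the interaction, by -0.25 ± 0.07 (adjusted p = 0.0164). Both this interaction and the rise of 0.15 in GDC (adjusted p = 0.0251) missed the threshold under DESeq2 size factors and without the filter on low counts, and the rise in GDC also in the DESeq2 test. The interaction also missed it without GDC replicate B, without GSK replicate A and without any single COMBO library (-0.17 to -0.19), and the rise in GDC without DMSO replicate A, GDC replicate A or GDC replicate B (0.10 to 0.14).

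HLA-E, the ligand of the inhibitory NK receptor CD94-NKG2A, had the highest estimated rise of the member heavy chains in GSK and in COMBO. The libraries A, B and C held 13.8, 14.8 and 13.6 CPM in DMSO, 21.7, 17.8 and 20.5 with GDC, 38.1, 44.4 and 39.1 with GSK, and 49.2, 50.8 and 50.2 with COMBO. Each arm lay wholly above the one before it. HLA-E was 2.90-fold higher in GSK (2.58 to 3.25, adjusted p = 8.80e-13), 3.57-fold higher in COMBO (3.20 to 3.98, adjusted p = 7.73e-15) and 1.42-fold higher in GDC (1.25 to 1.60, adjusted p = 0.000107). COMBO exceeded GSK by 0.30 ± 0.07 on the log2 scale (adjusted p = 0.00160), the widest gap between those arms among the members that rose and passed the test.

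HLA-F was expressed at a low level, with 107 counts over the 3 DMSO libraries. It stood at 2.0, 1.66 and 1.40 CPM in DMSO, 2.83, 2.53 and 2.21 with GDC, 4.94, 3.72 and 3.31 with GSK, and 5.34, 3.55 and 4.88 with COMBO. The GSK and COMBO libraries overlapped each other and lay above the rest. HLA-F was 2.49-fold higher in GSK (1.80 to 3.44, adjusted p = 2.42e-05) and in COMBO 2.86-fold higher (2.14 to 3.83, adjusted p = 7.64e-07). In GDC the rise was 1.59-fold (1.13 to 2.22, adjusted p = 0.0277), and it missed the threshold in the DESeq2 test (0.60 on the log2 scale) and without DMSO replicate C, GDC replicate A or GDC replicate B (0.49 to 0.61). The antisense gene HLA-F-AS1 overlaps it, and since the use of strand in counting was not given in the sources used here, reads of the pair cannot be told apart.

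**Figure D2:**
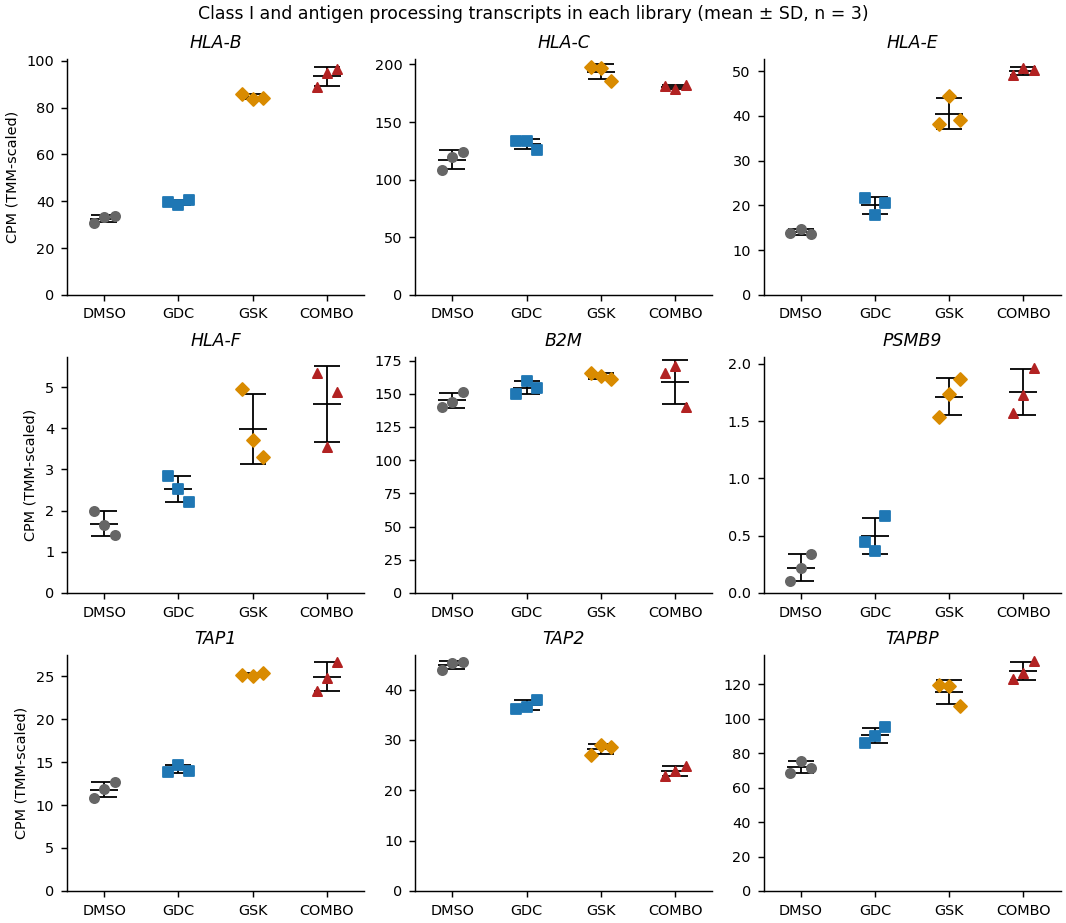
TMM-scaled CPM (y axis, from 0) of each of the 9 genes in the libraries of DMSO, GDC, GSK and COMBO (x axis). Points are libraries in the order A, B, C, and black marks give the mean ± SD (n = 3). GSK and COMBO lie above DMSO for HLA-B, HLA-C, HLA-E, HLA-F, PSMB9, TAP1 and TAPBP, TAP2 steps down from 44.9 to 23.9 CPM, and 1 COMBO library of B2M falls to the DMSO level.

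HLA genes are close copies of one another and differ between people, so single heavy chains carry some uncertainty in how reads were shared among them. When the reads of HLA-B, HLA-C, HLA-E and HLA-F were summed before testing, the sum was 155, 169.5 and 172 CPM in DMSO, 198, 192 and 189 with GDC, 326, 329 and 312 with GSK, and 324, 327 and 334 with COMBO. The sum thus rose 1.94-fold in GSK (adjusted p = 2.57e-13), 1.98-fold in COMBO (adjusted p = 5.19e-14) and 1.16-fold in GDC (adjusted p = 0.000900). The COMBO and GSK levels of the sum overlapped and differed by 0.03 ± 0.04 on the log2 scale, which did not pass the test (adjusted p = 0.669). Reads that matched several places were not counted, and they made up 8.06% ± 0.01 of reads in DMSO and 8.87% ± 0.16 in COMBO.

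The makeup of this pool of 4 heavy chains changed as well. Per kilobase of exon, HLA-C gave 73.2% ± 0.86 of the summed level of HLA-B, HLA-C, HLA-E and HLA-F in DMSO, 63.0% ± 0.42 in GSK and 58.4% ± 0.77 in COMBO (SD, n = 3). HLA-B rose from 20.4% ± 0.28 to 27.7% ± 0.71 and 30.3% ± 0.96, and HLA-E from 5.32% ± 0.34 to 7.99% ± 0.61 and 9.79% ± 0.17. The ranges of DMSO and COMBO did not overlap for any of these 3 shares.

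B2M, the light chain that every class I molecule needs, moved least of the members. The libraries A, B and C held 140.1, 144 and 151 CPM in DMSO, 149, 159 and 154 with GDC, 165, 163 and 161 with GSK, and 166, 171 and 139.8 with COMBO. COMBO replicate C lay below every DMSO library, while replicates A and B lay above all of them. The rise was 1.12-fold in GSK (1.03 to 1.23, adjusted p = 0.0181) and 1.10-fold in COMBO (1.01 to 1.20, adjusted p = 0.0471). Both calls were lost under DESeq2 size factors, in the DESeq2 test and without the filter on low counts, and the one in COMBO also when only the compared arms were fitted. Scaling by library totals instead raised the change to 0.32 in GSK and 0.34 in COMBO, a scaling that moved the median of all genes up by 0.15 and 0.21. The call in GSK was also lost without DMSO replicate A (0.14 on the log2 scale) or GSK replicate A (0.12), and the call in COMBO without DMSO replicate A or B or COMBO replicate A or B (0.07 to 0.12). GDC gave 0.09 ± 0.06, which did not pass the test (adjusted p = 0.262).

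Heavy and light chain transcripts were also compared within each library, a ratio that no scaling of libraries can alter. Per kilobase, B2M stood at 154 ± 5.86 CPM in DMSO against 104 ± 6.02 for the 4 heavy chains together, and at 173 ± 2.40 against 199 ± 5.45 in GSK. B2M transcripts per transcript of these 4 heavy chains stood at 1.48 ± 0.05 in DMSO, 1.36 ± 0.06 with GDC, 0.869 ± 0.015 with GSK and 0.841 ± 0.0996 with COMBO (n = 3). In each GSK and COMBO library the sum of these 4 heavy chains exceeded B2M per kilobase, and in each DMSO and GDC library B2M was the higher. Which of them is higher depends on the chains summed, the exon lengths used and the uncounted reads that matched several places.

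PSMB9, the interferon-inducible subunit that takes the place of PSMB6 in the immunoproteasome, showed the largest fold change of the members from a level near the detection limit. There were 1, 4 and 14 counts in the DMSO libraries A, B and C (0.105, 0.221 and 0.337 CPM), and 5, 6 and 10 in GDC. In GSK there were 14, 22 and 22 counts (1.54, 1.74 and 1.86 CPM), and in COMBO 27, 39 and 27 (1.57, 1.73 and 1.97 CPM). GSK and COMBO overlapped each other and lay above all DMSO and GDC libraries. The fitted change was 2.64 ± 0.33 on the log2 scale in GSK (adjusted p = 5.47e-07) and it was 2.65 ± 0.31 in COMBO (adjusted p = 1.09e-07). At its DMSO and GDC levels the gene could pass the filter on low counts only through the GSK and COMBO libraries. Both calls also passed the test when that filter was left out. From the pooled counts alone, the level in GSK was 6.29 times that in DMSO, with an exact 95% interval of 3.69 to 11.2 that covers counting error only. In GDC the pooled ratio was 1.80 (0.921 to 3.54), and the fitted change of 0.85 ± 0.42 did not pass the test (adjusted p = 0.127). The annotation of PSMB9 overlaps an exon of PSMB8 on the other strand, so part of the reads there may have gone uncounted as ambiguous.

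The rest of the catalytic core moved in both directions. PSMB8, which replaces PSMB5, rose from 2.99 ± 0.73 CPM in DMSO to 9.49 ± 0.15 in GSK and 10.2 ± 0.92 in COMBO, by 1.79 (adjusted p = 3.21e-09) and 1.89 (adjusted p = 2.87e-10) on the log2 scale. PSMB10, the inducible subunit that replaces PSMB7, did not follow: its change was -0.15 in GSK (adjusted p = 0.219), and in COMBO it fell by 0.48 (adjusted p = 0.000254). All 3 constitutive catalytic subunits fell in all 3 arms against DMSO. Of all genes tested, 20.0% were lower in GDC, 35.7% in GSK and 39.2% in COMBO. In COMBO, PSMB5 fell by 0.92, PSMB6 by 0.89 and PSMB7, named here to complete the trio, by 0.42, with adjusted p of 8.97e-13, 7.84e-13 and 8.86e-07.

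As a share of the subunit it replaces, PSMB9 rose from 0.169% ± 0.085 of PSMB6 in DMSO to 0.447% ± 0.150 with GDC, 1.75% ± 0.16 with GSK and 2.51% ± 0.37 with COMBO, per exon length. PSMB8 rose from 1.98% ± 0.57 of PSMB5 in DMSO to 8.62% ± 0.21 in GSK and 12.7% ± 1.21 in COMBO. PSMB10 stayed between 15.0% and 18.4% of PSMB7 in the means of the 4 arms. The first 2 ratios in GSK and COMBO did not overlap with DMSO, at an exact two-sided permutation p of 0.1, the smallest that 3 against 3 libraries allows. The ratios were chosen after the values had been seen. The constitutive subunits remained far more abundant than PSMB8 and PSMB9 in every arm.

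**Figure D3:**
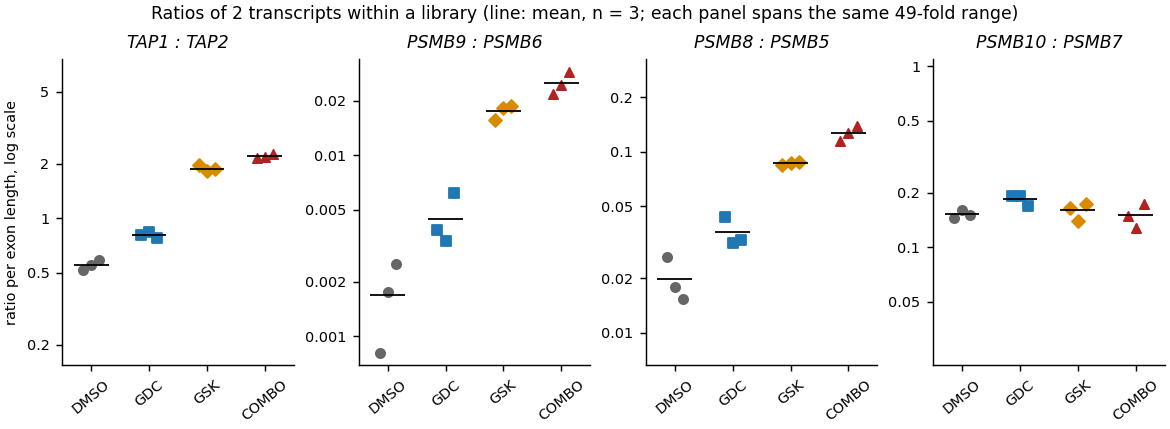
Ratio of 2 transcripts in the same library, per exon length (y axis, log scale), for TAP1 to TAP2 and for each inducible proteasome subunit to the subunit it replaces, in the 4 arms (x axis). Points are libraries and lines the mean (n = 3). TAP1 to TAP2 passes from 0.552 in DMSO to 2.19 in COMBO, PSMB9 to PSMB6 and PSMB8 to PSMB5 climb. PSMB10 to PSMB7 changes little, with its highest mean in GDC.

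The 2 subunits of the peptide transporter moved apart. TAP1 stood at 10.8, 11.9 and 12.7 CPM in DMSO, 13.8, 14.7 and 14.0 with GDC, 25.2, 25.1 and 25.3 with GSK, and 23.3, 24.8 and 26.7 with COMBO. TAP2 stood at 44, 45.2 and 45.5 CPM in DMSO, 36.1, 36.6 and 38.0 with GDC, 27.0, 29.0 and 28.6 with GSK, and 22.9, 23.9 and 24.9 with COMBO. For TAP2 the 4 arms did not overlap and stepped down in that order, whereas for TAP1 the GSK and COMBO libraries overlapped above the rest.

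TAP1 was 2.09-fold higher in GSK (1.86 to 2.35, adjusted p = 2.94e-10) and in COMBO 2.06-fold higher (1.85 to 2.31, adjusted p = 9.89e-11). In GDC it rose by 0.24 ± 0.08 on the log2 scale (adjusted p = 0.0316), a call that was lost under DESeq2 size factors, in the DESeq2 test, without the filter on low counts and without DMSO replicate A, DMSO replicate B, GDC replicate B or GDC replicate C (0.17 to 0.25). TAP2 fell in every arm, to 0.820 of its DMSO level in GDC (adjusted p = 0.000436), 0.629 in GSK (0.576 to 0.685, adjusted p = 3.63e-09) and to 0.530 in COMBO (0.487 to 0.576, adjusted p = 7.98e-12). Its level in COMBO was also below that in GSK, by -0.25 ± 0.06 (adjusted p = 0.00370), and below that in GDC, by -0.63 ± 0.06 (adjusted p = 9.23e-09). TAP2 was the only member that fell, and its fall in each of the 3 arms passed the test under all the alternatives tried that use the same threshold.

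Per exon length, there were 0.552 ± 0.033 TAP1 transcripts per TAP2 transcript in DMSO, 0.807 ± 0.034 with GDC, 1.88 ± 0.07 with GSK and 2.19 ± 0.06 with COMBO (SD, n = 3). None of the arms overlapped. TAP2 was thus the more abundant subunit in each DMSO and GDC library, and TAP1 in each GSK and COMBO library. The exact two-sided permutation p against DMSO was 0.1 for each arm, again the smallest possible with 3 libraries each.

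TAPBP, which holds the empty heavy chain at the transporter, rose in graded steps. It stood at 68.4, 75.5 and 71.5 CPM in DMSO, 86.2, 89.9 and 95.02 with GDC, 119.7, 119 and 107 with GSK, and 123, 127 and 134 with COMBO. The arms did not overlap. TAPBP was 1.26-fold higher in GDC (1.16 to 1.37, adjusted p = 0.000148), 1.60-fold higher in GSK (1.47 to 1.74, adjusted p = 1.68e-09) and in COMBO 1.78-fold higher (1.64 to 1.93, adjusted p = 2.83e-11). COMBO exceeded GSK by 0.15 ± 0.06 (adjusted p = 0.0353), a call that was lost without GSK replicate C (0.10, adjusted p = 0.191) and without COMBO replicate C (0.15, adjusted p = 0.0526). Its homolog TAPBPL, the peptide editor TAPBPR, rose more, from 4.72 ± 0.47 CPM in DMSO to 11.7 ± 2.01 in GSK and 15.6 ± 1.16 in COMBO, by 1.35 (adjusted p = 3.26e-08) and 1.76 (adjusted p = 7.80e-11) on the log2 scale.

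The step from EZH2 inhibition alone to both drugs was small. COMBO against GSK gave 3 members higher (HLA-B, HLA-E and TAPBP) and 1 lower (TAP2), against 19.0% and 26.9% of all genes. For HLA-F, PSMB9, TAP1 and B2M the GSK and COMBO libraries overlapped and the difference did not pass the test. The 95% interval of that difference was -0.18 to 0.14 on the log2 scale for TAP1, -0.16 to 0.09 for B2M, -0.20 to 0.61 for HLA-F and -0.50 to 0.53 for PSMB9. For HLA-F and PSMB9 these intervals are wide. In the step from PI3K inhibition alone to both drugs, COMBO against GDC gave 7 members higher and 1 lower, against 37.9% and 38.0% of all genes, with B2M the member that did not pass (0.04 on the log2 scale, adjusted p = 0.510). B2M passed at 0.16 without COMBO replicate C, and at 0.22 when libraries were scaled by their totals, which moved the median of all genes by 0.17.

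In the comparison of the single drugs, GSK against GDC gave 7 members higher and 1 lower, against 32.6% and 33.4% of all genes, from 0.35 for TAPBP (adjusted p = 2.34e-05) to 1.79 for PSMB9 (adjusted p = 7.92e-05) among those that rose. The rise of HLA-F, 0.65 (adjusted p = 0.0141), missed the threshold without GDC replicate C (0.56) or GSK replicate A (0.49). The order of the arms was DMSO, GDC, GSK, COMBO for HLA-B, HLA-E, HLA-F, PSMB9 and TAPBP, and the reverse for TAP2. HLA-C, TAP1 and B2M had their highest mean in GSK, but in none of them did GSK and COMBO differ by the test. All neighboring arms differed by the test for HLA-B, HLA-E, TAP2 and TAPBP, with the steps from GSK to COMBO of HLA-B and TAPBP resting on single libraries as given above. For B2M no neighboring pair did.

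The change with both drugs lay below the sum of the single-drug changes for 8 of 9 members, by an interaction between -0.12 (B2M) and -0.83 (PSMB9) on the log2 scale. Of all genes tested, 59.4% also lay below 0, with a median of -0.06, and the value of B2M was 0.03 without COMBO replicate C. The test of the interaction was passed by HLA-C alone, so 0 members were higher and 1 lower, against 4.86% and 16.5% of all genes. The sum of HLA-B, HLA-C, HLA-E and HLA-F, tested in their place, passed as well at -0.19 ± 0.06 (adjusted p = 0.0392). TAP1 (-0.26 ± 0.11, adjusted p = 0.117) and TAPBP (-0.18 ± 0.08, adjusted p = 0.120) had unadjusted p of 0.0354 and 0.0368. For TAP2 the sum of the single-drug changes was -0.96 and the change with both -0.92, an interaction of 0.04 ± 0.09 (adjusted p = 0.795).

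**Figure D4:**
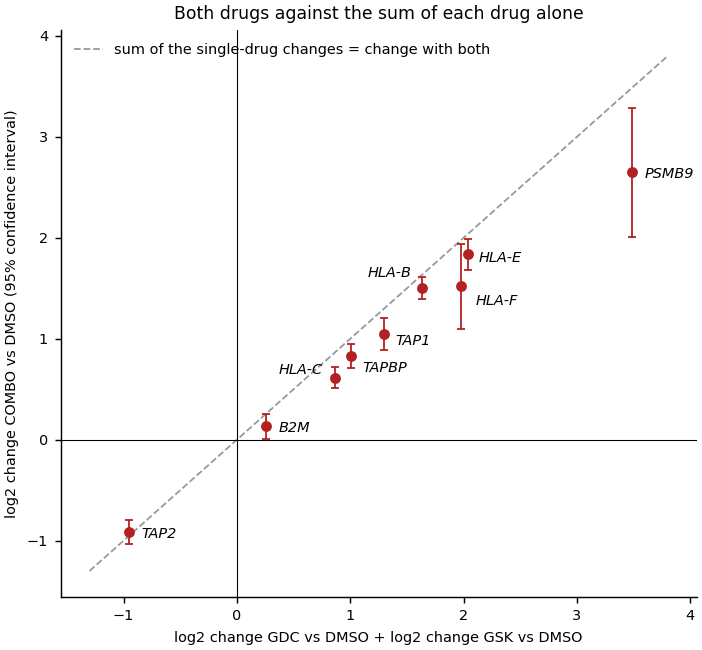
Log2 change in COMBO against DMSO (y axis, edgeR estimate with its 95% confidence interval) plotted against the sum of the log2 changes in GDC and in GSK (x axis) for the 9 genes. The dashed line marks equality. TAP2 lies just above the line at -0.92 against -0.96, and the other 8 genes lie below it, PSMB9 farthest at 2.65 against 3.48.

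Genes around the members in the pathway moved in both directions, and their counts are read against the 43.3% of all genes that were higher and the 39.2% that were lower in COMBO, and the 40.0% and 35.7% in GSK. Of 10 peptide trimming genes, 4 rose and 6 fell in COMBO, with a median of -0.34 on the log2 scale against 0.05 over all genes tested. ERAP1, the aminopeptidase that trims peptides in the endoplasmic reticulum, rose from 30.1 ± 0.60 CPM in DMSO to 55.4 ± 2.19 in GSK and 69.1 ± 1.85 in COMBO, by 0.88 (adjusted p = 3.14e-10) and 1.20 (adjusted p = 5.15e-13). THOP1, a cytosolic oligopeptidase that destroys peptides, fell from 109 ± 5.09 CPM to 61.4 ± 4.09 and 37.4 ± 0.92, by 0.83 in GSK (adjusted p = 2.26e-10) and by 1.54 in COMBO (adjusted p = 6.41e-15). ERAP2 was low at 2.46 CPM in DMSO and rose in COMBO by 0.45 (adjusted p = 0.0272), a call that was lost under 4 of 13 alternatives (0.33 to 0.65 over the 13). The value of ERAP2 in GSK was -0.11 (adjusted p = 0.646).

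Of 6 other immunoproteasome and proteasome activator genes, 2 rose and 4 fell in COMBO, with a median of -0.57, where 43.3% of all genes rose and 39.2% fell. The risers were PSMB8 and PSME1, a subunit of the interferon-inducible activator PA28, which changed by 0.49 (adjusted p = 1.50e-07). PSME2, its partner subunit, fell by 0.65 in COMBO (adjusted p = 1.83e-06), while its change of 0.06 in GSK did not pass the test (adjusted p = 0.564). PSME4, a nuclear activator, fell by 1.09 in COMBO (adjusted p = 1.05e-13). Of 10 other loading and folding genes, 2 rose in COMBO, TAPBPL among them, and 6 fell, with a median of -0.23, beside the same 43.3% and 39.2% of all genes. CALR, CANX and PDIA3, the general chaperones of heavy chain folding, had COMBO values of 0.06 (adjusted p = 0.112), -0.37 (adjusted p = 2.16e-07) and -0.21 (adjusted p = 2.98e-05), and PDIA6 of -0.56 (adjusted p = 5.87e-10).

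**Figure D5:**
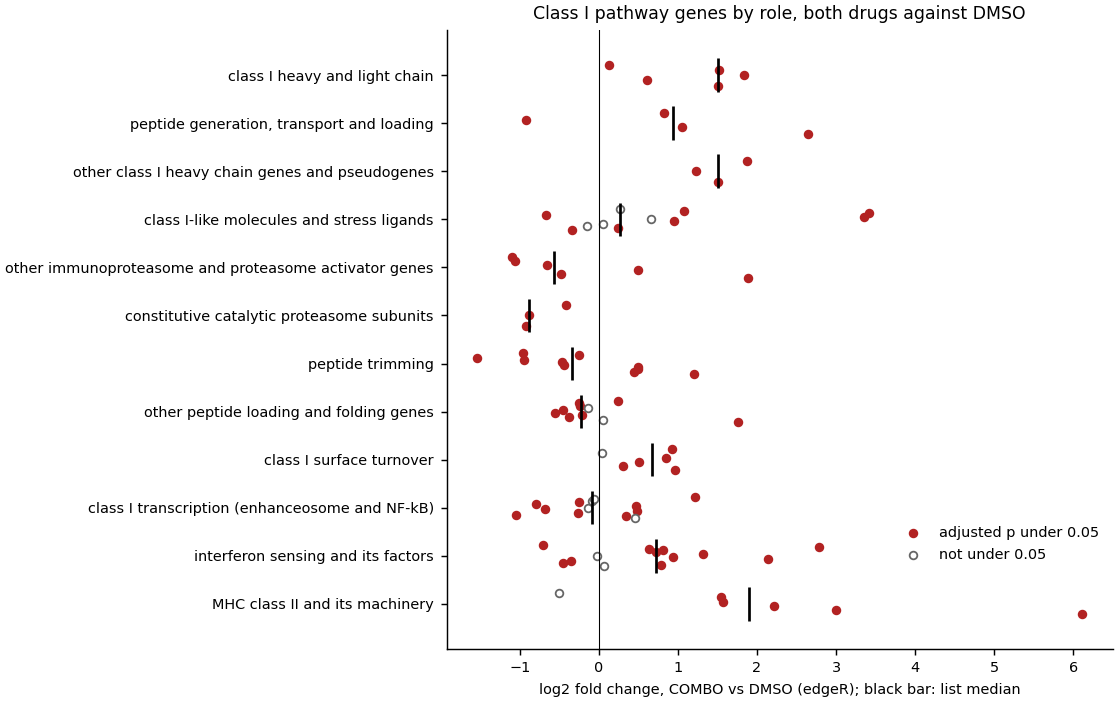
Log2 fold change in COMBO against DMSO (x axis, edgeR) of each tested gene, by role in the pathway (y axis). Filled red points passed the test, open points did not, and black bars are the list medians. Member heavy chain genes lie right of 0, the constitutive proteasome subunits all lie left of it, and trimming, folding and transcription genes lie on both sides. Genes near 0 in DMSO appear only where other arms carried them past the filter on low counts.

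Among class I-like molecules, MR1 and FCGRT had the largest changes in COMBO. MR1, which presents vitamin metabolites to MAIT cells, rose from 1.72 ± 0.50 CPM in DMSO to 4.80 ± 0.29 with GDC, 12.1 ± 1.85 with GSK and 17.0 ± 0.42 with COMBO. On the log2 scale these rises were 1.53 for GDC (adjusted p = 1.70e-06), 2.88 for GSK (adjusted p = 1.85e-12) and 3.35 for COMBO (adjusted p = 1.61e-14). FCGRT, the heavy chain of the neonatal Fc receptor, which also pairs with B2M, rose by 3.42 in COMBO from 0.295 ± 0.088 CPM (adjusted p = 1.90e-10). At that level in DMSO it could pass the filter on low counts only through the arms where it was higher. The stress ligand MICA went the other way in GDC and COMBO, at -0.45 (adjusted p = 0.000137) and -0.34 (adjusted p = 0.000383), and did not pass the test in GSK at 0.02 (adjusted p = 0.944). MICB was at 0.136 to 0.236 CPM in the means of the 4 arms and was not tested. RAET1L, named after its values were seen, could also pass the filter on low counts only through GSK, where it was high. With it and FCGRT among the 11 tested genes of this group, no count over the 11 is read. Of 4 heavy chain genes and pseudogenes counted outside the members, 3 passed the filter on low counts. Genes this low in DMSO could pass it only through the arms where they were high, so no count over the 3 is read. HLA-L, annotated as a long noncoding RNA that overlaps HCG18, went from 0.272 ± 0.164 CPM in DMSO to 1.19 ± 0.01 in GSK. It was at 1.32 ± 0.56 CPM in COMBO. The pseudogene HLA-H went from 0.307 ± 0.114 CPM in DMSO to 0.642 ± 0.258 in GSK and 1.02 ± 0.28 in COMBO.

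Of 6 tested genes of class I surface turnover, 5 rose in GSK and 5 in COMBO, with medians of 0.54 and 0.67, and 0 fell, where 40.0% of all genes rose in GSK and 43.3% in COMBO. KIAA0247 (SUSD6), which takes part in the turnover of surface class I, rose by 0.74 in GSK (adjusted p = 1.21e-09) and by 0.96 in COMBO (adjusted p = 5.36e-12). NBR1, an autophagy receptor, rose by 0.55 (adjusted p = 2.60e-09) and 0.93 (adjusted p = 2.75e-13).

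The transcription factors of class I genes moved in both directions, at shares close to those of all genes. Of 13 enhanceosome and NF-kB genes, 5 rose and 3 fell in GSK, and 4 rose and 5 fell in COMBO, with medians of -0.05 and -0.09, where 40.0% of all genes rose and 35.7% fell in GSK, and 43.3% and 39.2% in COMBO. NLRC5, the transactivator of class I genes, was low at 1.79 ± 0.25 CPM in DMSO and 3.87 ± 0.89 in GSK, a rise of 1.04 (adjusted p = 0.000204), and its change in COMBO was 0.45 (adjusted p = 0.0532). RFX5 and RFXAP are subunits of the RFX complex that NLRC5 needs. RFX5 rose by 0.69 in GSK (adjusted p = 2.68e-11) and by 0.34 in COMBO (adjusted p = 5.04e-07), whereas RFXAP fell by 1.26 (adjusted p = 1.60e-07) and by 1.04 (adjusted p = 3.01e-07). RELB rose by 1.32 in GSK at low level (adjusted p = 0.00139). It could pass the filter on low counts only through GSK and COMBO, where it was high, and it is among the risers counted above. NFKB1 was at -0.08 in GSK (adjusted p = 0.17) and fell by 0.25 in COMBO (adjusted p = 0.000255).

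Of 13 tested genes of interferon sensing, 8 rose and 2 fell in GSK, and 8 rose and 3 fell in COMBO, with medians of 0.57 and 0.73, beside 40.0% and 35.7% of all genes in GSK and 43.3% and 39.2% in COMBO. JAK1, a kinase of the type I and type II interferon receptors, rose from 2.99 ± 0.56 CPM in DMSO to 7.78 ± 0.96 in GSK and 13.1 ± 1.40 in COMBO, by 1.40 (adjusted p = 8.71e-08) and 2.14 (adjusted p = 1.05e-11). IRF1 rose by 0.57 in GSK (adjusted p = 0.00986) and by 0.73 in COMBO (adjusted p = 0.000533) from 2.09 CPM. SOCS3, a feedback inhibitor of JAK signaling, had 8 counts over the DMSO libraries and 37 over the GSK libraries, a pooled ratio of 9.53 (4.37 to 23.7 by counting error). It too could pass the filter on low counts only through the arms where it was high. As SOCS3 is among the 8 risers in GSK and in COMBO, the counts and medians of the 13 are not read as a result.

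MHC class II genes, which epithelial cells usually keep off, were low in every arm. Of 15 class II genes counted, 6 passed the filter on low counts. Some of the 6 were near 0 in DMSO and could pass it only through the arms where they were high, so no count over the 6 is read. HLA-DQB1, HLA-DMA and IFI30, named after their values were seen, were at 1.19, 1.32 and 1.37 CPM in DMSO. In GSK, HLA-DQB1 rose by 2.57 on the log2 scale (adjusted p = 3.30e-11) and HLA-DMA by 1.12 (adjusted p = 0.000336). IFI30 at 0.32 did not pass the test (adjusted p = 0.383). HLA-DRA had 1 count over the 3 DMSO libraries and 1 over the 3 GDC libraries, against 59 in GSK and 81 in COMBO. The pooled ratio to DMSO was 122 in GSK with an exact counting interval of 21.0 to 4883. At 1.69 ± 0.62 CPM in GSK the gene was still low. The immune markers LYZ, PTPRC and CD8A given above were also at a higher mean CPM in GSK and COMBO than in DMSO, and their part in this result was not tested. HLA-DPA1 went from 0.240 ± 0.120 CPM in DMSO to 1.85 ± 0.25 in GSK and 2.33 ± 0.35 in COMBO. Its pooled ratio to DMSO was 6.49 in GSK (3.87 to 11.3 by counting error) and 8.14 in COMBO (5.06 to 13.8). The annotation of HLA-DPA1 overlaps HLA-DPB1 on the other strand.

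The course of the members over the libraries was also matched against all other tested genes. The 5 genes most like the mean of the 9 standardized members over the 12 libraries were NCSTN, FIG4, POLD4, PRSS8 and ACSS1, with Pearson r of 0.994, 0.994, 0.994, 0.993 and 0.993. For PSMB9 alone they were RBKS (0.993), SYT17 (0.987) and SNAP91 (0.985). With 4 arms such likeness is common, since 1017 of 14180 genes had r over 0.95 with the mean of the members. Among the members, TAP1 followed HLA-B most closely (r = 0.991), TAP2 ran opposite to HLA-E (r = -0.978), and B2M had its highest r at 0.630, with HLA-C. These values describe 12 libraries that share arms, and carry no test.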

How the data were processed

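PolyA RNA of 12 C4.2B cultures was sequenced. Per the labels and the study's methods, alignment used STAR on hg38, and the reads of each gene were tallied by HTSeq. Versions, annotation, use of strand and any alternate MHC contigs in the index were not given in the sources used here. The authors deposited a raw count for every gene symbol, followed by summary lines, which stayed out of library sizes and tests (reads outside genes were 14.2% ± 0.48 of reads in DMSO and 21.8% ± 1.07 in COMBO). A deposited table of counts divided by DESeq2 size factors was not used.

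Genes were kept by filterByExpr (14189 of 23228), scaled by TMM and tested in edgeR 4.0.16 (R 4.3.3) with glmQLFit and glmQLFTest. All 12 libraries entered 1 fit with a coefficient per arm. Each arm was compared with DMSO, COMBO with each single drug, and GSK with GDC, and the interaction was COMBO minus GDC minus GSK plus DMSO on the log2 scale. Adjusted p-values are Benjamini-Hochberg over all genes tested, two-sided, with a threshold of 0.05. The procedure was tested on simulated data. Log2 CPM for likeness used a prior count of 2.

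The members and gene lists were chosen with earlier results of these data known. Named genes were a fixed set of pathway genes plus the 2 of each list with the largest change in COMBO among those past the threshold. PSMB7, RAET1L, HLA-DQB1, HLA-DMA and IFI30 were named after their values were seen. Some listed genes are not reported here and were left out of the list counts. Marker genes were named from their lists, and the genes of most similar course by Pearson r. Lengths and positions come from GENCODE 44, which placed 21469 of the 23228 symbols. Promoters come from RefSeq (GRCh38.p14). Counting intervals (95%) cover counting error only. Alternatives were DESeq2 1.42.0 (test and size factors), scaling by library totals, leaving out the filter, a filter of 1 CPM on the mean, the compared arms alone, a replicate block, a size condition of 1 on the absolute log2 fold change, and leaving out each library.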

Additional observations from a re-analysis of the deposited data

Results flagged for a closer look

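For 12 of the 42 members and named genes tested, the change with both drugs departed from the sum of the single-drug changes by the edgeR test of the interaction, which is what drew attention to them. All 12 departed downward with TMM scaling, and the interactions of genes other than members were not tried under the alternatives. For THOP1, PSMB6 and EZH2, which fell with each drug alone, downward means a larger fall than the sum. Among the members this was HLA-C, at -0.25 ± 0.07 (SE) on the log2 scale (adjusted p = 0.0164). The interaction was -1.06 for MR1, -0.91 for RFX5, -0.63 for PSME2, -0.53 for PDIA6, -0.52 for THOP1, -0.45 for PSME1, -0.40 for PDIA3, -0.33 for EZH2, -0.31 for CALR, -0.25 for PSMB6 and -0.20 for NBR1. MR1 and RFX5 rose with each drug alone and by less than the sum with both. For RFX5 the level with both, 146 ± 4.17 CPM, lay below that with either drug alone (170 ± 2.08 in GDC and 185 ± 6.48 in GSK). PSME2, PDIA6 and PDIA3 fell against DMSO with both drugs and had not fallen with either drug alone. Over all genes tested, 16.5% departed downward and 4.86% upward.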

How the results depend on the processing

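The 63 values of the members (9 genes in 7 comparisons) gave 863 values under the alternatives, of which 803 kept sign and side of the threshold, 44 lost the call and 4 gained it. The other 12 changed sign without passing the threshold in either case, all of them in COMBO against GSK (B2M, PSMB9 and TAP1) or the interaction (B2M). Where calls also had to reach 1 in absolute log2 fold change, 0 members were called in GDC, 5 in GSK and 5 in COMBO against DMSO, 3 in COMBO against GDC, 0 in COMBO against GSK, 3 in GSK against GDC and 0 in the interaction, and 266, 3104, 4412, 3094, 422, 1957 and 189 genes in the same order. The DESeq2 test called 4 members in GDC against DMSO, where edgeR called 7. For the interaction, 0 members were called with DESeq2 size factors and 0 without the filter, where edgeR with TMM called 1. Leaving out single libraries gave 4 to 6 members in GDC against DMSO, 2 to 4 in COMBO against GSK and 0 to 2 in the interaction. PDIA6 in GSK against DMSO turned from -0.03 to 0.12 when libraries were scaled by their totals. The cause of these changes was not tested. Scaling by totals moved the median change of all genes by 0.15 in GSK and 0.21 in COMBO against DMSO, and the share of higher genes among those called from 52.8% to 64.0% and from 52.5% to 63.3%. The same scaling moved that share from 49.9% to 62.8% in COMBO against GDC, from 41.4% to 52.3% in COMBO against GSK and from 49.4% to 62.1% in GSK against GDC. For the interaction it was 22.7%, 35.2% with DESeq2 size factors and 55.4% without the filter, and in GDC against DMSO it was 50% and 35.9% without the filter. Replicate letters were not treated as a pairing. Of 18 same-letter pairs, 2 correlated above 0.1 in their deviations from the arm means. Both were between GDC and COMBO (0.12 for A and 0.19 for B), so this tally cannot exclude a pairing of those arms. With the replicate block, 7 members were called in GDC, 9 in GSK and 8 in COMBO against DMSO, the call lost being B2M in COMBO (0.13). Depth limits PSMB9, HLA-F and the class II genes, where a library holds few counts.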
